A study of Mus musculus with 63 samples.

Results

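The core circadian clock genes were followed through the hearts of 8 inbred mouse strains. The set was defined by gene symbol and holds Arntl, Clock, Npas2, Dbp, Tef, Per1, Per2, Per3, Nr1d1 and Nr1d2, 10 of the 19220 genes in the deposited count table. All 10 passed the filter on low counts, with at least 25.8 estimated counts in every library. RNA-seq was made from heart tissue of inbred mice whose strains founded the Diversity Outbred stock. They are named 129, AJ, B6, NOD and NZO, known as classical inbred strains, and Cast, PWK and WSB, known as wild-derived. There were 63 libraries, 7 from Cast and 8 from every other strain. Every group received the same high-fat, high-sugar diet with 45% of it fat, and no other diet was analysed here. The labels used here give no genotype beyond the strain, no transgene, no age, no sex and no hour of collection, so no heart could be placed at a time of day. They also do not say beyond identifiers that the libraries came from separate mice, so the p-values measure the spread between these libraries. A library such as B6_7 is replicate 7 of B6.

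The circadian clock is a transcriptional feedback loop that runs in nearly every cell. ARNTL (also called BMAL1) pairs with CLOCK or its relative NPAS2, binds E-box sequences and drives the Per genes, Nr1d1, Nr1d2 and Dbp. PER proteins, with the CRY proteins, inhibit that pair, while NR1D1 and NR1D2 (REV-ERB alpha and beta) repress Arntl through ROR elements. DBP and TEF are related activators of genes with D-box sequences, among them Per genes. In the heart the clock is known for daily rhythms in metabolism and electrical properties, and Arntl and Dbp transcripts there peak at opposite times of day.

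Members of the set lie on 7 chromosomes by the deposited annotation (GRCm38). Arntl is at chr7:113207465-113314122, Clock at chr5:76209868-76304792 and Npas2 at chr1:39193731-39363236. Dbp is at chr7:45705247-45710203 and Tef at chr15:81802421-81826861. Per1 is at chr11:69095217-69109960, Per2 at chr1:91415982-91459324 and Per3 at chr4:151003652-151044665. Nr1d1 is at chr11:98767932-98775333 and Nr1d2 at chr14:18204054-18239127.

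Promoter windows show which of the loop's own motifs sit beside these genes. RefSeq (GRCm38.p6) gave 14 windows for 9 of the 10 members, each from 250 bases before to 50 bases after a transcript start. Per2 is named only. Motifs were searched on both strands as the E-box CACGTG, its variant CACGTT, the D-box TTANGTAA and the ROR half-site AGGTCA, none of which overlapped another in these windows. Of all 32851 windows, 7.15% held the E-box, 4.68% the variant, 2.32% the D-box and 16.3% the half-site. Per3 held 2 D-boxes, at -205 and -158 from the start, and 0.0822% of all windows held 2 or more. Both Tef windows held an E-box, and a Per1 window held an E-box at -166 and the half-site at -137. Nr1d1 held the E-box variant at -28. The half-site was also in windows of Nr1d2 (-77), Clock (-119) and Arntl (32 bases after the start). No searched motif was in the windows of Dbp and Npas2 or in the remaining windows of Clock, Arntl and Per1. A match describes these letters and is not a measured binding site. Shown here are the 250 bases before the start of 4 members with matches and a 30-base stretch of Arntl, 5′ to 3′ on the gene's strand, with the motifs in capitals. They are Per3 at chr4:151044666-151044915 (minus strand), Tef at chr15:81802423-81802672 (plus), Per1 at chr11:69098699-69098948 (plus), Nr1d1 at chr11:98775378-98775627 (minus) and Arntl at chr7:113207530-113207559 (plus).
Per3: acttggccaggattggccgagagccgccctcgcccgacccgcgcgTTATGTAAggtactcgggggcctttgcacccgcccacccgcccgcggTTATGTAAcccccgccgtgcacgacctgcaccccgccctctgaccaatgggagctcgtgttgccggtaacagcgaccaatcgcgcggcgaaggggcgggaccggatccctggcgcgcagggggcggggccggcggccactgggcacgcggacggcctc
Tef: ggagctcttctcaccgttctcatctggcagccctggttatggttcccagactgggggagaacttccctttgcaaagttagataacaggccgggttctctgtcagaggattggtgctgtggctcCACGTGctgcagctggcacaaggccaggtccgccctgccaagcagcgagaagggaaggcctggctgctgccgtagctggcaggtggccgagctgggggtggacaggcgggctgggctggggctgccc
Per1: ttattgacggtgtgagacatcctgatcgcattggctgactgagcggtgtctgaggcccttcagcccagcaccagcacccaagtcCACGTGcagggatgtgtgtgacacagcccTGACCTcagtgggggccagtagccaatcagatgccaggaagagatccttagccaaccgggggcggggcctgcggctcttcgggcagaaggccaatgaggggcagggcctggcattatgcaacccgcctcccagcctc
Nr1d1: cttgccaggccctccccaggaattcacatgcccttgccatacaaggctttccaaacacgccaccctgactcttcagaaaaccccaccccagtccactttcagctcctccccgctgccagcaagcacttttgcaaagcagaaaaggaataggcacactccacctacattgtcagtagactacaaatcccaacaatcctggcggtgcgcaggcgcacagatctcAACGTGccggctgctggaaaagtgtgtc
Arntl: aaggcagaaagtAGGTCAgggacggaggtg

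Library totals ran from 21.8 to 42.9 M estimated counts, with a median of 30.4 M. The hearts carried their tissue's markers, since 6 cardiomyocyte genes summed to between 30126 and 65521 CPM (counts scaled to library size after TMM, the unit of all levels here), and only 1 of 5 skeletal muscle genes passed the filter. A few libraries stood apart in the clock genes or the tissue. B6_7 held Arntl at 1.84 CPM against 24.3 CPM in the next lowest B6 library and Dbp at 81.4 CPM against 3.78 CPM in the next highest. Cast_7 had the same kind of profile, with Arntl at 4.49 CPM and Dbp at 49.5 CPM. In B6_7 and Cast_7 the cardiomyocyte sum was 52879 and 51359 CPM, within the range of their own strains. B6_7 had the highest atrial sum of B6 (2358 CPM against a median of 1295 CPM). It had the lowest fibroblast (938 against 1003 CPM), endothelial (653 against 761 CPM) and macrophage (111 against 115 CPM) sums of B6. Cast_7 had the highest macrophage sum (131 against 98.3 CPM) and B cell sum (18.1 against 7.47 CPM) of Cast. NZO_8 had the lowest cardiomyocyte sum of NZO (42120 CPM against a median of 48501 CPM) and the highest macrophage (269 against 110.002 CPM), fibroblast (1890 against 1548 CPM) and adipocyte (589 against 375 CPM) sums. Its sum of 10 glucocorticoid-induced genes was also the highest of NZO (842 against 463 CPM). WSB_1 differed in tissue markers, with a cardiomyocyte sum of 30126 CPM against a WSB median of 59036 CPM and an adipocyte sum of 1175 CPM against 346 CPM. Its endothelial sum was the highest of WSB (1085 against 724 CPM). In WSB_1 Nr1d1 was at 9.09 CPM, Clock at 46.4 CPM and Per2 at 47.3 CPM. Their part in the clock gene values was not tested. Called values that changed call without B6_7, Cast_7 or WSB_1 are given with and without them.

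**Figure D1:**
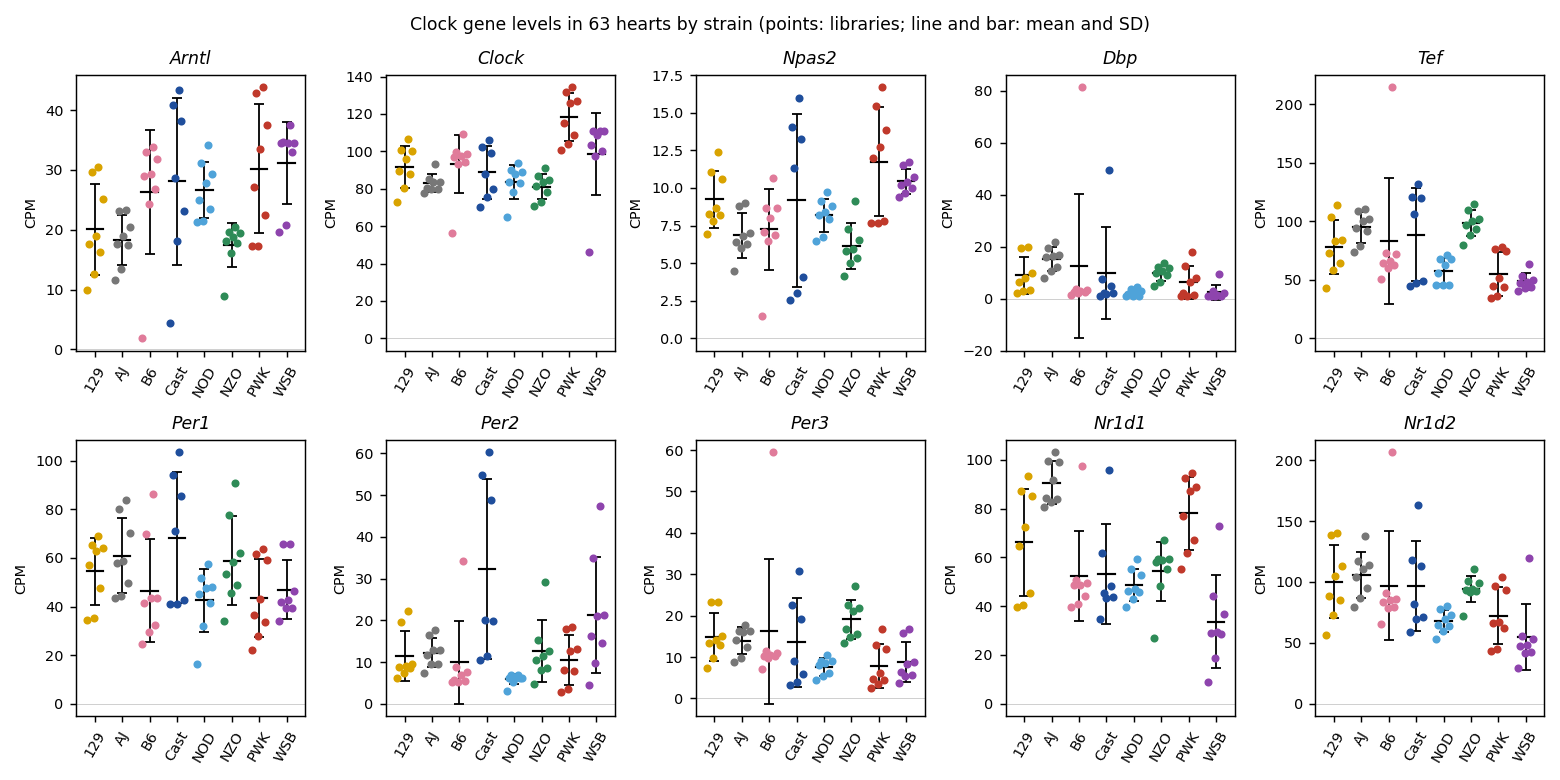
Level of each of the 10 clock genes (y axis, CPM, a panel per gene) in the 63 hearts by strain (x axis). Points are libraries, and the line and bar are the mean and SD. Dbp in B6_7 (81.4 CPM) and Cast_7 (49.5 CPM) sits far above the other libraries of those strains, and Per2 is highest in Cast at 32.3 CPM.

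Per kilobase of exon (GENCODE M21), Nr1d1 and Nr1d2 were the most abundant members, at 19.4 and 15.9 CPM per kb over all libraries. Tef and Per1 followed at 9.59 and 9.33 CPM per kb and Clock at 6.73 CPM per kb. Arntl, Dbp, Per2, Npas2 and Per3 were lower, between 3.29 CPM per kb for Arntl and 1.33 CPM per kb for Per3. Between the highest and the lowest library the level of Dbp differed 86.8-fold, that of Arntl 23.9-fold and that of Clock 2.90-fold.

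Strain levels were compared with edgeR's quasi-likelihood test and Benjamini-Hochberg adjustment over all 16425 genes tested, and an adjusted p under 0.05 counts as called. Of the 10 members 9 differed among the 8 strains, all but Per1 (adjusted p = 0.0633). Over all genes tested 89.4% did, so this count does not set the clock genes apart. Each strain was also set against the mean of the other 7 on the log2 scale. Members were called 12 times as higher and 9 times as lower in the 80 contrasts, where 22.3% of all gene contrasts were called higher and 19.3% lower. Of the 280 member comparisons between pairs of strains 80 were called, against 40.5% over all genes. The median member had a within-strain SD of 0.528 log2 units against 0.237 over all genes, and 29.8% of its variance lay between strains, against 44.3%. In none of the 21 called contrasts did the strain's libraries lie wholly above or below all others. When the strains were ordered by mean log2 CPM, neighbours in the order differed in 1 of 70 comparisons (Clock in PWK against WSB, adjusted p = 0.0327). Such an order places the closest strains side by side by construction. For neither count was the share over all genes computed, so neither can be read as a trait of the clock genes. In bulk tissue, fewer cells of a type and less RNA per cell cannot be told apart.

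With all libraries, Arntl, the activator at the centre of the loop, differed little between strains beside its spread within them. Strain took up 5.50% of its variance. The deviations of B6_7 (-3.47 log2 units) and Cast_7 (-2.35) enter that spread, and the share without them was not computed for Arntl. Its level was 31.1 ± 6.86 CPM (SD, n = 8) in WSB, 30.2 ± 10.8 in PWK, 28.1 ± 14.0 in Cast (n = 7), 26.7 ± 4.67 in NOD and 26.3 ± 10.4 in B6. It was lower at 20.1 ± 7.60 CPM in 129, 18.3 ± 4.18 in AJ and 17.4 ± 3.67 in NZO. Arntl ran from 8.95 to 20.5 CPM (median 18.5) in NZO and from 19.6 to 37.5 CPM (median 34.5) in WSB, so the ranges met only at their edges. The test over strains called Arntl (adjusted p = 0.0299), and that call was lost without NZO_8 (adjusted p = 0.0504). NZO_8 is also the NZO library with the outlying tissue markers given above. No single strain was called with all libraries, while leaving out any of 9 single libraries called Arntl lower in NZO. Without B6_7, Cast_7 and WSB_1, Arntl was lower in NZO (log2 fold change -0.60, adjusted p = 0.00131) and AJ (-0.53, 0.00472) and higher in WSB (0.43, 0.0193) and Cast (0.39, 0.0320).

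Clock and Npas2, which encode the partners of ARNTL, were highest in PWK. Clock was at 118 ± 13.0 CPM (SD, n = 8) there, with a range of 100.9 to 134 CPM (median 121), and at 98.6 ± 21.8 in WSB, 93.3 ± 15.6 in B6 and 91.7 ± 11.3 in 129. It was at 88.8 ± 14.1 CPM in Cast, 83.9 ± 9.07 in NOD, 83.0 ± 4.81 in AJ and 81.2 ± 6.91 in NZO. The libraries of the other strains ran from 46.4 to 111 CPM, so the PWK range overlapped only their upper end. Clock was higher in PWK (log2 fold change 0.42 ± 0.08 SE, adjusted p = 4.77e-06) and lower in NZO (-0.20 ± 0.08, adjusted p = 0.0434). The NZO call was lost without any of 8 single libraries (Cast_2, Cast_3, NZO_1, NZO_2, NZO_4, NZO_5, NZO_6 or NZO_8). Without WSB_1, Clock was also called higher in WSB (0.23, adjusted p = 0.00410) and lower in AJ (-0.18, 0.0188) and NOD (-0.16, 0.0388).

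Npas2 was at 11.7 ± 3.63 CPM (SD, n = 8) in PWK, 10.5 ± 0.830 in WSB, 9.25 ± 1.88 in 129, 9.18 ± 5.77 in Cast and 8.17 ± 1.12 in NOD. It was at 7.24 ± 2.69 CPM in B6, 6.84 ± 1.48 in AJ and 6.15 ± 1.54 in NZO. PWK libraries ran from 7.69 to 16.7 CPM (median 12.3) and NZO libraries from 4.17 to 9.16 CPM (median 5.86), with some overlap. Npas2 was higher in PWK (log2 fold change 0.54 ± 0.18 SE, adjusted p = 0.00780) and lower in NZO (-0.52 ± 0.20, adjusted p = 0.0280). The NZO call was lost without NZO_2, NZO_3 or NZO_4. With the mitochondrial share of counts as a covariate, which ran from 17.8% in PWK to 29.2% in B6 as strain means, the PWK calls of Clock (log2 fold change 0.25, adjusted p = 0.213) and Npas2 (0.06, 0.924) were lost. Within strains the SD of that share ran only from 0.878% in NOD to 1.76% in WSB, so the covariate largely follows strain. A call lost with it, here and below, cannot be told apart from the removal of strain itself.

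Dbp, the activator of D-box genes, had the widest range of strain levels in the set, 2.91 log2 units between strain means. It was at 15.2 ± 4.66 CPM (SD, n = 8) in AJ, 9.91 ± 2.91 in NZO and 9.15 ± 7.08 in 129. At the low end it was at 2.57 ± 2.85 CPM in WSB and 2.42 ± 1.29 in NOD, with PWK at 6.41 ± 6.27. In B6 (12.6 ± 27.8 CPM) and Cast (9.95 ± 17.6, n = 7) the mean was set by a single library, and the medians were 2.92 and 2.43 CPM. AJ libraries ran from 8.06 to 21.9 CPM (median 16.3), all above the 8 NOD libraries at 0.994 to 4.52 CPM (median 2.32). WSB libraries ran from 1.02 to 9.44 CPM (median 1.43), and 7 of its libraries other than WSB_9 did not pass 2.87 CPM. Dbp was higher in AJ (log2 fold change 1.24 ± 0.46 SE, adjusted p = 0.0266) and lower in NOD (-1.79 ± 0.61, adjusted p = 0.0191) and WSB (-1.66 ± 0.61, adjusted p = 0.0229).

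The Dbp call in AJ was lost without AJ_6 or AJ_8 (adjusted p up to 0.0605). With the mitochondrial share as a covariate, those in NOD (log2 fold change -1.22, adjusted p = 0.302) and WSB (-1.46, 0.0597) were lost. In B6 the log2 fold change of Dbp was 0.93 with all libraries and -1.24 without B6_7, with neither called, and without Cast_7 alone it was called higher (1.15, adjusted p = 0.0340). In Cast it was 0.53 with all libraries and -0.69 without B6_7, Cast_7 and WSB_1, again not called. Leaving out those 3 libraries also brought calls of higher Dbp in NZO (1.06, adjusted p = 0.00623) and 129 (0.93, adjusted p = 0.0249).

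Tef, the relative of Dbp, followed it in AJ and WSB. Its level was 98.4 ± 11.1 CPM (SD, n = 8) in NZO, 95.1 ± 13.3 in AJ, 88.7 ± 39.5 in Cast, 83.0 ± 53.7 in B6 and 78.2 ± 23.4 in 129. The lowest were 57.8 ± 11.03 CPM in NOD, 55.1 ± 18.5 in PWK and 48.9 ± 7.15 in WSB. NZO libraries ran from 80.2 to 115 CPM (median 98.98) and lay wholly above the WSB libraries at 40.9 to 63.6 CPM (median 47.7). Tef was higher in NZO (log2 fold change 0.48 ± 0.16 SE, adjusted p = 0.0122) and AJ (0.43 ± 0.16, adjusted p = 0.0290), and lower in WSB (-0.67 ± 0.18, adjusted p = 0.00156) and PWK (-0.47 ± 0.17, adjusted p = 0.0186). The AJ call was lost without AJ_2, AJ_6, AJ_7 or AJ_8 and the PWK call without PWK_6 or PWK_7. In Cast, Tef was called without any of 4 single libraries (lowest adjusted p = 0.0228, without B6_7). With the mitochondrial share as a covariate the PWK value turned to 0.08 (adjusted p = 0.877).

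The Per genes encode the inhibitors of the loop, and Per2 had the clearest strain differences of the 3. Per2 was at 32.3 ± 21.5 CPM (SD, n = 7) in Cast and 21.2 ± 13.9 in WSB. In the middle it was at 12.6 ± 7.40 CPM in NZO, 12.3 ± 3.50 in AJ, 11.5 ± 6.04 in 129, 10.6 ± 5.95 in PWK and 9.94 ± 9.88 in B6. NOD was lowest at 5.93 ± 1.21 CPM, with libraries from 3.21 to 6.98 CPM (median 6.27), all below the lowest Cast library. Cast libraries ran from 10.6 to 60.2 CPM (median 20.1), with Cast_5, Cast_6 and Cast_7 at 54.8, 48.9 and 60.2 CPM and the other 4 at 20.1 CPM or less. Per2 was higher in Cast (log2 fold change 1.52 ± 0.28 SE, adjusted p = 6.18e-06) and WSB (0.83 ± 0.28, adjusted p = 0.0142) and lower in NOD (-1.28 ± 0.34, adjusted p = 0.00267).

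The WSB call of Per2 was lost without WSB_1 (log2 fold change 0.55, adjusted p = 0.140) or without WSB_4, while it held without B6_7, Cast_7 and WSB_1 together (0.67, adjusted p = 0.0372). The NOD call was lost with the mitochondrial share as a covariate (-1.10, adjusted p = 0.0735). Without B6_7, Per2 was called lower in B6 (-1.04, adjusted p = 0.0120), where its other 7 libraries lay between 5.21 and 8.84 CPM.

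Per3 was highest in NZO at 19.2 ± 4.73 CPM (SD, n = 8), with libraries from 13.4 to 27.1 CPM (median 19.0). It was at 16.2 ± 17.5 CPM in B6, 14.9 ± 5.75 in 129, 14.0 ± 3.30 in AJ and 13.6 ± 10.7 in Cast. WSB at 8.85 ± 4.80, PWK at 7.89 ± 5.25 and NOD at 7.61 ± 2.08 CPM were lowest, and every NZO library was above every NOD library, of which the highest was 10.4 CPM. Per3 was called higher in NZO (log2 fold change 0.75 ± 0.27 SE, adjusted p = 0.0221), a call lost without NZO_6 (adjusted p = 0.0653). Its lower values in PWK (-0.71, adjusted p = 0.05004) and NOD (-0.77, 0.0520) missed the threshold narrowly. The PWK value was called without any single one of 27 libraries and the NOD value without any of 16, B6_7 among both (-0.61, adjusted p = 0.0497, and -0.67, 0.0485).

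Per1 was at 68.4 ± 26.9 CPM (SD, n = 7) in Cast, 61.0 ± 15.6 in AJ, 58.9 ± 18.2 in NZO and 54.4 ± 13.7 in 129. It was at 47.0 ± 12.2 CPM in WSB, 46.5 ± 21.2 in B6, 43.4 ± 16.1 in PWK and 42.6 ± 12.97 in NOD. Cast libraries ran from 40.9 to 103 CPM (median 71.1) against 16.3 to 91.0 CPM in all other libraries. Its only called contrast was Cast (log2 fold change 0.45 ± 0.19 SE, adjusted p = 0.0328), which was lost without Cast_1, Cast_5, Cast_6 or Cast_7 alone (adjusted p up to 0.169). Without Cast_1, Cast_5 and Cast_6 together the direction turned (-0.033, adjusted p = 0.928). In those 3 libraries the summed glucocorticoid-induced genes were at 1890, 1066 and 1154 CPM, against 675 CPM in Cast_7 and a Cast median of 891 CPM, and their part in the Per1 value was not tested. Over the 8 strains Per1 was called by DESeq2 (adjusted p = 0.0367) and, in edgeR, without any single one of 11 libraries (lowest adjusted p = 0.0210, without B6_7), though not with all libraries.

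Nr1d1 and Nr1d2, the repressors of Arntl, were both high in AJ and low in WSB. Nr1d1 was at 90.7 ± 8.86 CPM (SD, n = 8) in AJ, 78.1 ± 15.1 in PWK, 66.2 ± 22.0 in 129, 54.2 ± 12.1 in NZO, 53.3 ± 20.5 in Cast, 52.4 ± 18.6 in B6 and 48.6 ± 6.66 in NOD. WSB was lowest at 33.6 ± 19.1 CPM. AJ libraries ran from 80.8 to 103 CPM (median 88.1), all above the WSB libraries at 9.09 to 72.8 CPM (median 29.3). Nr1d1 was higher in AJ (log2 fold change 0.76 ± 0.16 SE, adjusted p = 9.75e-05) and PWK (0.51 ± 0.16, adjusted p = 0.00638) and lower in WSB (-0.88 ± 0.18, adjusted p = 7.64e-05). Without B6_7, Cast_7 and WSB_1 the WSB value was -0.68 (adjusted p = 0.000206). The PWK call was lost with the mitochondrial share as a covariate (0.32, adjusted p = 0.493).

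Nr1d2 was at 106 ± 18.7 CPM (SD, n = 8) in AJ, 99.98 ± 29.97 in 129, 97.0 ± 44.9 in B6, 96.7 ± 37.0 in Cast and 94.3 ± 10.8 in NZO. It was at 72.3 ± 23.3 CPM in PWK, 67.8 ± 9.16 in NOD and 54.8 ± 27.3 in WSB. WSB libraries ran from 29.5 to 119 CPM (median 47.9), where WSB_9 held the highest value and the other 7 were at 55.9 CPM or less. AJ libraries ran from 79.4 to 138 CPM (median 108). Nr1d2 was lower in WSB (log2 fold change -0.71 ± 0.17 SE, adjusted p = 0.000598). The higher level in AJ (0.38 ± 0.16, adjusted p = 0.0495) sat at the threshold and was lost without any single one of 46 libraries.

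**Figure D2:**
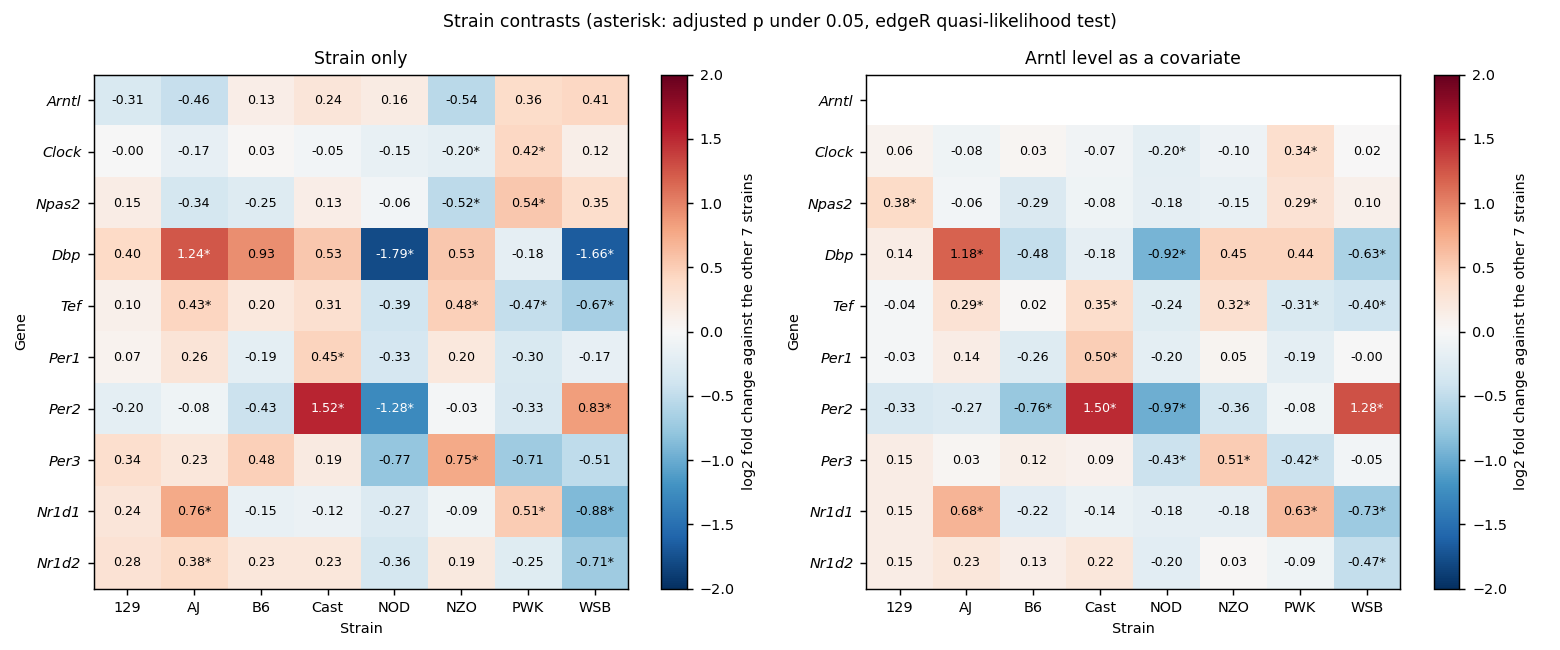
Log2 fold change of each clock gene (rows) in each strain (columns) against the mean of the other 7 strains, with strain alone in the model and with the level of Arntl as a covariate. Colour runs from -2 to 2, and asterisks mark an adjusted p under 0.05 in edgeR's quasi-likelihood test. Per2 in Cast is at 1.52 and 1.5 in the 2 models.

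By strain, AJ had 4 members called higher (Dbp, Tef, Nr1d1 and Nr1d2) and WSB had the same 4 called lower beside a higher Per2. In AJ 20.6% of all genes were called higher and in WSB 19.9% lower and 25.1% higher. NZO had higher Tef and Per3 and lower Clock and Npas2, against 22.1% of all genes higher and 18.5% lower. PWK had higher Clock, Npas2 and Nr1d1 and lower Tef, against 27.0% and 26.7%. Cast had higher Per1 and Per2 (30.6% of all genes higher), and NOD lower Dbp and Per2 (13.5% of all genes lower). In 129 and B6 no member was called, at a share of 16.8% and 17.5% of all genes higher and 14.4% and 14.7% lower. Without B6_7, Cast_7 and WSB_1 all 10 members differed among strains, against 91.9% of all genes, and the strain calls rose from 21 to 18 higher and 15 lower, when 24.5% of all gene contrasts were called higher and 21.6% lower. Over pairs of strains the count rose from 80 to 121, against 44.7% of all genes.

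Within strains the members rose and fell together, the activators on one side and the other 7 on the opposite side. Each library's log2 CPM was taken as a deviation from its strain mean, and every gene's slope on the Arntl deviation was tested beside strain (edgeR's quasi-likelihood test, adjusted over all genes tested). All 9 other members were called, against 0.944% of all genes tested. Clock and Npas2 rose with Arntl (0.597% of all genes had a positive call) and Dbp, Tef, Per1, Per2, Per3, Nr1d1 and Nr1d2 fell as Arntl rose (0.347% a negative one). The median absolute slope was 0.46 log2 units per log2 unit of Arntl among the 9 members and 0.0387 over all genes. With Dbp in place of Arntl, 9 of 9 were again called, 6 with a positive slope and 3 with a negative one, against 1.01% of all genes (0.432% positive and 0.578% negative).

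**Figure D3:**
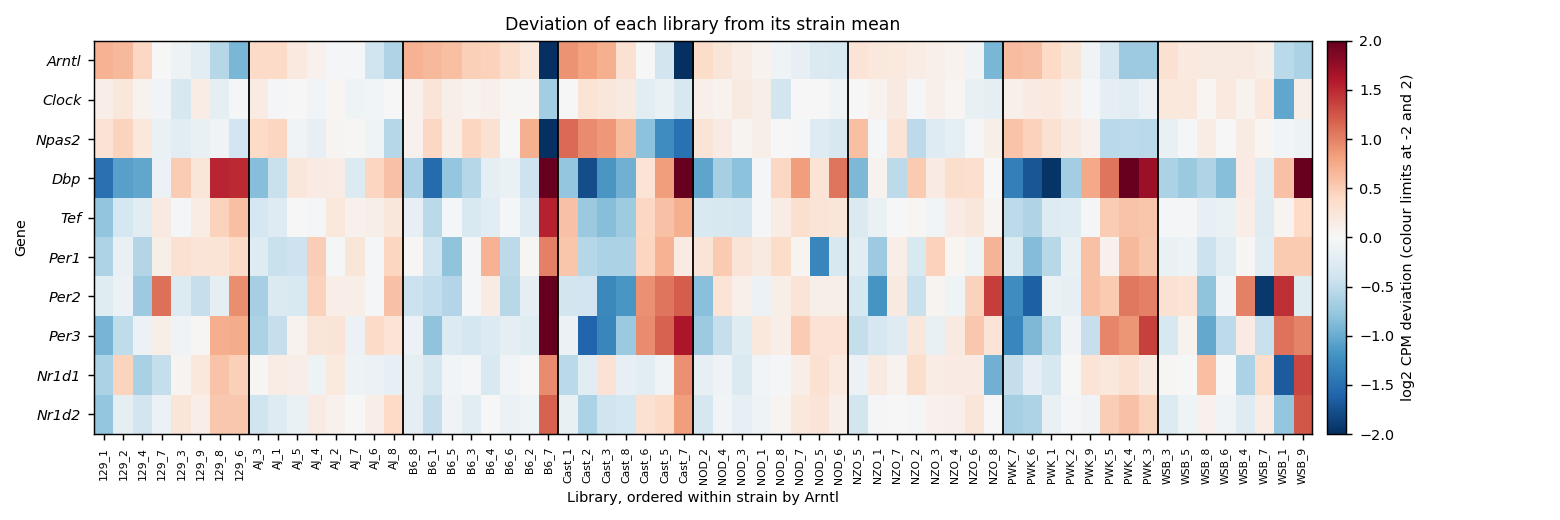
Deviation of each library from its strain mean (colour, log2 CPM, limits at -2 and 2) for the 10 clock genes (rows), with libraries (columns) ordered within strain by Arntl. Where Arntl is low, Dbp, Tef and Per3 are high, most of all in B6_7 (Arntl -3.47, Dbp 4.28) and Cast_7 (Arntl -2.35, Dbp 3.54).

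Npas2 rose by 0.65 ± 0.06 log2 units (SE) per log2 unit of Arntl (adjusted p = 4.01e-11) and Clock by 0.21 ± 0.03 (adjusted p = 9.16e-06). Pearson's r of their deviations with Arntl over the 63 libraries was 0.83 for Npas2 (Spearman's rho 0.80) and 0.66 for Clock (rho 0.70). Without the 2 libraries farthest out in Arntl, B6_7 and Cast_7, r was 0.66 for Npas2 and 0.55 for Clock. Clock rose with Arntl in 8 of 8 strains and Npas2 in 7 of 8, with r at -0.01 in NZO. A permutation test of Arntl within strains gave p = 1e-05 for both, the smallest that 100000 resamples can give. In all 9 relations with Arntl were computed.

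Dbp had the steepest slope, -1.54 ± 0.09 log2 units (SE) per log2 unit of Arntl (adjusted p = 1.03e-20). Its r with Arntl was -0.89 (rho -0.89, permutation p = 1e-05, the smallest possible), the largest in size of all 16424 genes compared, and -0.84 without B6_7 and Cast_7. For Tef the slope was -0.46 ± 0.05 (adjusted p = 6.06e-11) and r was -0.79 (rho -0.80, permutation p = 1e-05). Both had a negative r in 8 of 8 strains. Dbp also had a within-strain SD of 1.24 log2 units, larger than in 99.3% of all genes tested.

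Dbp against Arntl was also taken within each strain, 8 relations in all, with two-sided exact permutation tests. Pearson's r was -0.98 in B6 (rho -0.86, exact p = 0.00570), -0.97 in 129 (rho -0.95, 0.000223), -0.97 in Cast (rho -0.79, 0.00258) and -0.96 in PWK (rho -0.88, 0.000694). It was -0.91 in NOD (rho -0.90, exact p = 0.00332), -0.88 in WSB (rho -0.81, 0.00370) and -0.81 in AJ (rho -0.76, 0.0168), and these 7 had exact permutation p adjusted over the 8 strains of 0.0192 or less. In NZO r was -0.18 (rho -0.43, exact p = 0.656). NZO_8 had Arntl at 8.95 CPM with Dbp at 9.38 CPM, near its strain's mean, and without NZO_6 and NZO_8 the r was -0.78. In WSB the r was -0.36 without WSB_1 and WSB_9, the 2 libraries farthest from the strain's median in Arntl. By the same rule it was -0.74 in B6 (without B6_2 and B6_7), -0.75 in Cast (Cast_5 and Cast_7) and -0.65 in AJ (AJ_6 and AJ_8). It was -0.82 in NOD, -0.93 in PWK and -0.97 in 129.

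**Figure D4:**
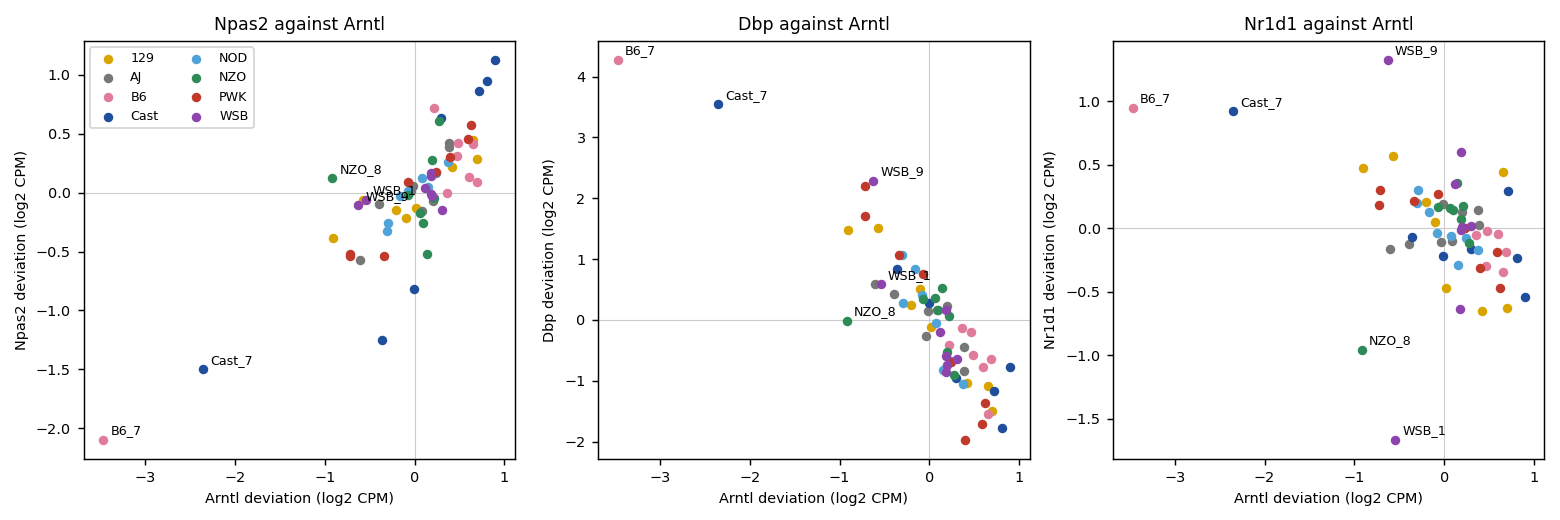
Deviations from the strain mean (log2 CPM) of Npas2, Dbp and Nr1d1 (y axes) against that of Arntl (x axes). Each point is a library, coloured by strain, and 5 libraries are named. Npas2 rises along the Arntl axis (r = 0.83), Dbp falls (r = -0.89), and Nr1d1 is loosely related (r = -0.41).

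Per3 followed Arntl most closely among the Per genes, with a slope of -0.84 ± 0.07 log2 units (SE) per log2 unit of Arntl (adjusted p = 1.08e-12) and an r of -0.82 (rho -0.84). For Per2 the slope was -0.74 ± 0.10 (adjusted p = 8.52e-07) and r was -0.67 (rho -0.66). Both had p = 1e-05 by permutation within strains, and both were negative in 8 of 8 strains. Per1 had a slope of -0.34 ± 0.08 (adjusted p = 0.0108) and an r of -0.50 (rho -0.58, permutation p = 2e-05). Its r was positive in NOD (0.71) and negative in the other 7 strains. The Per1 call was lost without B6_7 (slope -0.40, adjusted p = 0.0696).

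Nr1d2 fell with Arntl by 0.45 ± 0.05 log2 units per log2 unit (adjusted p = 3.25e-10; r = -0.76, rho = -0.81, permutation p = 1e-05), and did so in 8 of 8 strains. Nr1d1 had the weakest relation of the 9, with a slope of -0.29 ± 0.07 (adjusted p = 0.0135) and an r of -0.41 (rho -0.42, permutation p = 0.00292). Its r was -0.15 without B6_7 and Cast_7, -0.55 without WSB_1 and -0.32 without all 3, so its size rests on which of those libraries enter. The slope of Nr1d1 kept its size but was not called without B6_7 (-0.31, adjusted p = 0.123) or without Cast_7 (-0.26, 0.0935). Within strains its r ran from -0.96 in B6 to 0.87 in NZO, negative in 5 strains and positive in 3. With B6_7, Cast_7 and WSB_1 left out, 8 of the 9 members were called, against 0.412% of all genes with a positive and 0.539% with a negative call.

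Ranked by the size of r with Arntl among 16424 genes, Dbp was first, Npas2 4th, Per3 5th, Tef 7th, Nr1d2 13th, Per2 20th, Clock 22nd, Per1 93rd and Nr1d1 278th. All 3 pairs among Arntl, Clock and Npas2 had a positive r (0.56 to 0.83), and 20 of the 21 pairs of an activator with a member of the other 7 had a negative one (median -0.65). The exception was Clock with Nr1d1 (r = 0.10), which was -0.36 without WSB_1. Of the 21 pairs among the other 7 members 20 were positive (median 0.63), with Tef and Per3 highest at 0.91 and Per2 with Nr1d1 the exception at -0.04.

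**Figure D5:**
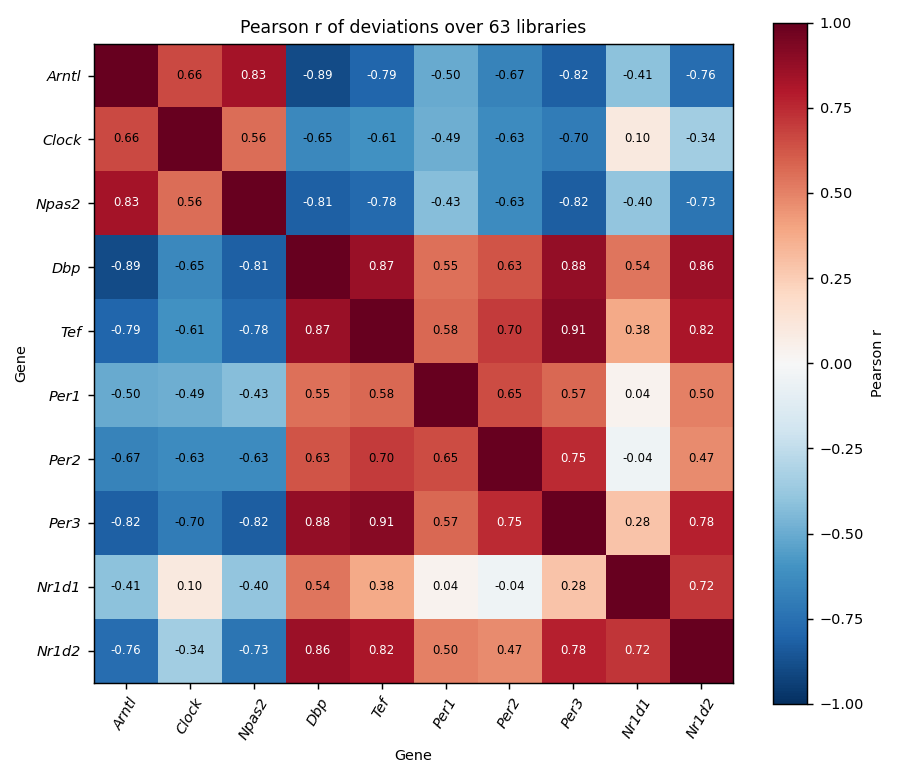
Pearson's r of deviations from the strain mean for each pair of clock genes over 63 libraries (colour and printed values). Arntl, Clock and Npas2 form a positive block (0.56 to 0.83) and are negative against the others except Clock with Nr1d1 (0.10).

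As a description over the 8 strain means of log2 CPM, which share the libraries above, the same order appeared for several members. Strains with higher Arntl had lower Per3 (r = -0.95), Tef (-0.95), Nr1d2 (-0.90) and Dbp (-0.89). For Nr1d1 r was -0.49 and for Per1 -0.63, while for Clock it was 0.62 and for Npas2 0.77. NZO and WSB were the strains farthest from the median in Arntl. Without them r was 0.56 for Clock, 0.58 for Npas2, -0.30 for Nr1d1, -0.61 for Per1 and -0.24 for Per2. It was then -0.98 for Per3, -0.89 for Tef, -0.94 for Nr1d2 and -0.83 for Dbp. Per2 did not follow Arntl over strains (r = 0.03), with WSB and Cast among the higher strains in both genes.

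Strain differences were tested again with the level of Arntl as a covariate, a model chosen after seeing the data. Of the 9 other members 8 differed among strains, against 88.9% of all genes, and Per1 was again the one not called (adjusted p = 0.0751). Calls numbered 13 higher and 11 lower, against 22.1% and 19.2% of all gene contrasts. Per2 remained higher in Cast (log2 fold change 1.5 ± 0.20 SE, adjusted p = 6.49e-09) and WSB (1.28 ± 0.21, adjusted p = 8.74e-07) and lower in NOD (-0.97 ± 0.24, adjusted p = 0.00119). Dbp was at 1.18 ± 0.18 in AJ (adjusted p = 4.15e-07), -0.92 ± 0.23 in NOD (adjusted p = 0.00123) and -0.63 ± 0.24 in WSB (adjusted p = 0.0256), about as large as before in AJ and smaller in NOD and WSB.

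In the same model Nr1d1 was at 0.68 ± 0.14 in AJ, 0.63 ± 0.14 in PWK and -0.73 ± 0.16 in WSB (adjusted p = 0.000182 or less in all 3). Clock in PWK was at 0.34 ± 0.06 (adjusted p = 3.38e-06). The NZO values of Clock (-0.10, adjusted p = 0.206) and Npas2 (-0.15, adjusted p = 0.337) and the AJ value of Nr1d2 (0.23, adjusted p = 0.0626) were no longer called. The 6 gained calls were Per2 in B6 (-0.76 ± 0.24, adjusted p = 0.0110), Npas2 in 129 (0.38, adjusted p = 0.00691), Clock in NOD (-0.20, adjusted p = 0.0121), Tef in Cast (0.35, adjusted p = 0.00288) and Per3 in NOD (-0.43, adjusted p = 0.0428) and PWK (-0.42, adjusted p = 0.0303).

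A list of 17 other clock loop genes was read against the same Arntl slope. Of these 1 rose with Arntl, 5 fell and 11 were not called, with a median slope of -0.01. Nfil3, the repressor at D-boxes, rose by 0.49 ± 0.06 log2 units (SE) per log2 unit of Arntl (adjusted p = 1.16e-07). The genes that fell were Ciart, an inhibitor of CLOCK and ARNTL (-0.84 ± 0.06, adjusted p = 9.64e-16), Hlf, the third PAR bZIP factor beside Dbp and Tef (-0.40 ± 0.05, adjusted p = 8.82e-09), the E-box repressors Bhlhe41 (-0.35) and Bhlhe40 (-0.26), and Cry2 (-0.22, adjusted p = 0.00215). Cry1, the other cryptochrome, had a slope of 0.23 (adjusted p = 0.147). Of 12 clock output genes, 2 fell as Arntl rose, Usp2 (-0.36, adjusted p = 3.18e-10) and Tspan4 (-0.37, adjusted p = 5.57e-09), and 10 were not called. Of 10 glucocorticoid-induced genes 1 rose (Cdkn1a, 0.46, adjusted p = 0.0195) and 9 were not called, and none of 10 immediate early genes was called. Over all genes tested 0.944% were called in either direction.

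No gene of the cardiomyocyte (6), atrial (5), fibroblast (7), endothelial (5), adipocyte (6), B cell (5) or macrophage (5) markers was called on Arntl. Over all genes tested 0.944% were called, so the lack of calls does not set the markers apart. In the libraries with lower and higher numbers in the titles, Arntl had an r of -0.63 and 0.14 with the summed fibroblast markers. It was -0.27 and 0.55 with the endothelial, 0.22 and -0.52 with the atrial and -0.48 and 0.13 with the macrophage markers. The cause of these shifts was not tested. Arntl deviations had an r of 0.12 with the log2 total count, -0.15 with the mitochondrial share, 0.06 with the library number in the titles and 0.08 with the summed cardiomyocyte markers. These belong to a family of 72 relations, computed for Arntl, Per1, Per2 and Nr1d1, and the adjusted permutation p of those 4 ran from 0.565 to 0.754. Of the 18 with Arntl 2 passed 0.05 after adjustment. Its r was -0.50 with the second principal component of all genes' deviations (rho -0.57, adjusted permutation p = 0.00144), which held 10.9% of their variance. It was 0.38 with the summed clock output genes (rho 0.37, adjusted permutation p = 0.00957), opposite in sign to the slopes of Usp2 and Tspan4. That sum is made mostly of Lpl (mean 3835 CPM, slope 0.06) and Pdk4 (1293 CPM, slope 0.46, adjusted p = 0.0635), while Usp2 and Tspan4 were at 68.9 and 11.3 CPM.

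Outside the members and by their r with Arntl over 63 libraries, the genes most like it in the positive direction were Fam124b (0.84), Slc41a3 (0.81), Nfil3 (0.78), Leo1 (0.78), Ypel2 (0.77) and Syne1 (0.75). In the negative direction they were Ciart (-0.84), Usp2 (-0.78), Tcap (-0.77), Tspan4 (-0.74), Hlf (-0.71) and Coq10b (-0.71). Without B6_7, Cast_7 and WSB_1, Fam124b dropped to 0.52 and Slc41a3 was at 0.79.

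The 4 members examined, Arntl, Per1, Per2 and Nr1d1, each moved with at least 1 summed list of genes outside the members. The values of Arntl are given above. The principal components were taken over genes that include the members. Per2 deviations had an r of 0.48 with the second principal component (rho 0.47, adjusted permutation p = 0.0072), where Arntl had -0.50. Per1 deviations had an r of 0.64 with the summed CPM of the 10 glucocorticoid-induced genes (rho 0.65, permutation p = 1e-05, the smallest possible, and 0.000720 adjusted over 72 relations), and 0.62 without Cast_1 and NZO_8. It was 0.64 in the libraries with lower numbers in the titles and 0.57 in those with higher numbers. Per2 had an r of 0.45 with the same sum (rho 0.49, adjusted permutation p = 0.00768), 0.49 without Cast_1 and NZO_8. In the libraries with lower and higher numbers it was 0.27 and 0.56. With the immediate early genes Per1 had an r of 0.44 (rho 0.41, adjusted permutation p = 0.00990). With the summed other clock loop genes Per1 had an r of 0.43 (rho 0.35, adjusted permutation p = 0.0125). Per2 had an r of 0.53 with that sum (rho 0.58, adjusted permutation p = 0.00612). In the libraries with lower and higher numbers these were 0.25 and 0.26 for Per1 and 0.18 and 0.66 for Per2. Nr1d1 had an r of 0.60 with the summed cardiomyocyte markers (rho 0.34, adjusted permutation p = 0.00612), which fell to 0.26 without NZO_8 and WSB_1, so it rests on those libraries. In the libraries with lower and higher numbers that r was 0.71 and 0.18. Nr1d1 also had an r of -0.57 with the first principal component of all genes' deviations (rho -0.36, adjusted permutation p = 0.0156), which was -0.30 without WSB_1 and WSB_7, and of -0.48 with the TMM factor (rho -0.38, adjusted permutation p = 0.0125), which was -0.32 without 129_9 and WSB_1. In the lower and higher numbers r was -0.71 and 0.06 for that component and -0.69 and -0.12 for the TMM factor. The part of these readouts in the strain differences of Arntl, Per1, Per2 and Nr1d1 was not tested.

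Dbp and Nr1d1 share exonic bases with neighbours, and strand use in counting is not given in the sources used here. Dbp shares 539 of its 2993 exonic bases with Sphk2, whose within-strain SD was 0.17 log2 units, whose r with Dbp was 0.36 and whose Arntl slope was not called (-0.03, adjusted p = 0.812). Nr1d1 shares 263 of 3077 exonic bases with Thra (r = 0.08; Thra slope 0.07, adjusted p = 0.177).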

How the data were processed

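RNA-seq of heart tissue gave 63 libraries of 8 strains, which were grouped by the strain and replicate number in the labels. The authors deposited a table of expected counts (estimated counts per gene on GRCm38, per the submitters' processing notes), which are not normalised and of which 18.4% are not whole within 1e-06. The authors also deposited a variance-stabilised table of log2 values made with DESeq2, per the submitters' processing notes, which served only as an alternative. Which aligner and counter were used, and with which strand setting, is not given in the sources used here. GRCm38 is the genome of B6, and whether other strains lost reads to sequence variants was not tested.

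Rounded counts went into edgeR 4.0.16, with limma 3.58.1 and DESeq2 1.42.0 for alternatives (all in R 4.3.3). filterByExpr with a minimum count of 10 kept 16425 genes, 2795 being too low. TMM factors ran from 0.828 to 1.16. A robust edgeR quasi-likelihood fit gave the test over strains, the 28 pairs, each strain against the mean of the remaining 7 with equal weights, and the slope on Arntl beside strain, with Benjamini-Hochberg adjustment over all genes and a threshold of 0.05. Deviations are log2 CPM (prior count 2) minus the strain mean, and correlations were permuted within strains (100000 resamples). Depth ran from 21.8 to 42.9 M counts. On simulated counts of the 16425 genes, changes of 0.5 log2 units in the WSB contrast were recovered in 92% of 100 changed genes. Slopes of 0.5 on Arntl were recovered in 99% of 100 changed genes. Neither share was computed for the members. Their median within-strain SD was 0.528 log2 units against 0.237 over all genes, so these shares do not give the rate of recovery for the clock genes.

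The members and lists were chosen with earlier results of these data known. The plan was to name up to 4 members per list by slope or by range of strain means. Of the other clock loop genes, all called genes and Cry1 were named instead. Of the clock output genes, Lpl and Pdk4 were named for their levels. Also named, among genes whose mean log2 CPM reached 1, were the 6 most positive and 6 most negative correlations with Arntl. Predicted genes were left out. Same-numbered replicates of different strains had a median r of 0.05 between their deviations (199 pairs, -0.16 to 0.38, 20.1% over 0.1). In the other pairs of libraries between strains the median r was -0.01, and the difference was not tested. The numbers were not taken to pair the libraries in the main tests, and a replicate block served as an alternative. No libraries were identical, and the highest correlation between 2 of them was 0.990. Alternatives were DESeq2 size factors and tests, no filter, limma on the deposited log2 values, a replicate block, covariates, and libraries left out. Leaving out B6_7 or Cast_7, or both with WSB_1, and the Arntl covariate were added after seeing the data. No sequence of Per2 was used.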

Additional observations from a re-analysis of the deposited data

Results flagged for a closer look

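In each of the 80 groups formed by a member and a strain, the highest or lowest library was compared with the rest by Dixon's criterion, and 18 groups had a library apart from the others. The nominal rate of the criterion is about 5% of groups, and the share over all genes was not computed. The criterion was applied to CPM rather than log2 CPM, and members of a strain share their libraries. The count therefore cannot be read as a trait of the clock genes. B6_7 accounts for 9 of the 18. In it Arntl (1.84 CPM), Npas2 (1.46 CPM) and Clock (56.6 CPM) were the lowest of B6, and Dbp (81.4 CPM), Per2 (34.2 CPM), Per3 (59.4 CPM), Tef (215 CPM), Nr1d1 (97.3 CPM) and Nr1d2 (206 CPM) the highest. Cast_7 had the highest Dbp of Cast (49.5 CPM). NZO_8 had the lowest Arntl (8.95 CPM) and Nr1d1 (27.1 CPM) and the highest Per2 (29.2 CPM) of NZO, with Dbp at 9.38 CPM. WSB_9 had the highest Dbp (9.44 CPM) and Nr1d2 (119 CPM) of WSB, and WSB_1 the lowest Clock (46.4 CPM). NOD_2 had the lowest Per2 of NOD (3.21 CPM), and AJ_3 the highest Clock of AJ (93.3 CPM).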

How the results depend on the processing

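Counts of calls were mostly within 1.5 times of those reported. The exceptions were 39 calls over pairs of strains with the mitochondrial share as a covariate and 121 without B6_7, Cast_7 and WSB_1, against 80, and 33 calls over strain contrasts (18 higher, 15 lower) without those 3 libraries, against 21. No share over all genes is given for the mitochondrial covariate, which largely follows strain. The 21 called contrasts were computed under 13 other settings, and directions turned in 2 of these 273 values: Per1 in Cast was -0.033 without Cast_1, Cast_5 and Cast_6 (adjusted p = 0.928), and Tef in PWK was 0.080 with the mitochondrial share as a covariate (adjusted p = 0.877). A further 20 values were no longer called and 251 kept direction and call. Of all 80 contrasts, called or not, 7 turned without B6_7 (among them Dbp, Tef, Per3 and Nr1d2 in B6), 3 without Cast_7, 1 without WSB_1, 9 without all 3 and 6 without Cast_1, Cast_5 and Cast_6. Leaving out each of the 63 libraries in turn gave 18 (without AJ_6) to 27 (without B6_7) calls over strain contrasts, 7 (without B6_7) to 9 members called on the Arntl slope and 8 (without NZO_8) to 10 over strains. Leaving out single libraries was not run for pairs of strains. Correlations with Arntl kept their sign in all 72 alternatives and moved by more than their error in 16. In the libraries with lower and higher numbers in the titles r was 0.49 and 0.94 for Clock, 0.72 and 0.94 for Npas2, and -0.53 and -0.94 for Tef. It was -0.19 for Per1 and -0.59 for Nr1d2 in the lower numbers, and -0.89 for Per3 and -0.65 for Nr1d1 in the higher. Other moved values were 0.78 for Clock without WSB_1, 0.66 for Npas2 and -0.15 for Nr1d1 without B6_7 and Cast_7, 0.67 for Npas2 without B6_7, Cast_7 and WSB_1, -0.94 for Dbp on the deposited log2 values and -0.90 for Tef without Cast_1, Cast_5 and Cast_6. The cause of these shifts was not tested.

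With the replicate block, 10 members were called over strains, 20 member and strain contrasts, 74 pairs of strains and 8 slopes. Under the block Clock in NZO (adjusted p = 0.0608) and the slope of Nr1d1 (0.0896) were lost and Per1 over strains was gained (0.0172). Whether the shared numbers pair libraries was not tested. The lowest estimated count of a member in any library was 25.8, and the part of depth in the member values was not tested.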
